A study of Mus musculus with 6 samples.

Results

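The genes that move calcium into, out of and around the sarcoplasmic reticulum of heart muscle were examined in HL-1 cells given hyaluronan (HA). The members were 10 genes fixed by symbol, namely Atp2a2, Sln, Pln, Ryr2, Casq2, Rrad, Slc8a1, S100a1, Jph2 and Fkbp1b. They were read by 12 of the 25697 probes on the array, with 2 probes each for Atp2a2 and Jph2 and 1 for every other gene. HL-1 is an immortalised line grown from mouse atrial muscle, so all samples share 1 cell line and no animal was compared. The 6 arrays fell into 3 groups of 2. Untreated cells served as the control, o-HA cells received hyaluronan chains of 6 sugars at 50 µg/mL for 24 h, and n-HA cells received hyaluronan of 1000 kDa at 10 µg/mL for 24 h. All cells were kept in Claycomb medium, which the methods describe as holding serum and the adrenergic agonist norepinephrine for routine culture. The doses of the 2 hyaluronans differ, so their values are given side by side and the 2 are not compared with each other.

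In a heart muscle cell each beat begins when calcium enters through channels of the surface membrane and opens ryanodine receptors, which let out the calcium stored in the sarcoplasmic reticulum. The pump SERCA2, encoded by Atp2a2, then returns calcium to the store, and the sodium-calcium exchanger, encoded by Slc8a1, expels the rest. Phospholamban (Pln) and sarcolipin (Sln) are small membrane proteins that restrain the pump, and in the mouse heart sarcolipin is known chiefly from the atrium.

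Whether replicates came from separate culture dishes is not given in the labels, and the spread behind every p-value may therefore be technical. Each group occupied its own neighbouring places on 1 chip, and place and treatment cannot be told apart. Mean bead intensity was 121.6 to 140.9 on the untreated arrays, 125.1 to 131.8 with o-HA and 93.3 to 110.1 with n-HA. Probes of any kind detected per array numbered 5763 and 5449 (untreated), 5504 and 5443 (o-HA) and 4767 and 4546 (n-HA). A dim probe that went undetected with n-HA therefore shared this with many others. One n-HA array stood apart (n-HA replicate 1), since its log2 values correlated with the other arrays at 0.817 to 0.873 across probes. The 2 n-HA arrays differed from each other, which widened the shared error of the model, and leaving out either of them narrowed it. Because n-HA replicate 1 stood apart, results are given with and without that array. The labelled cell type was borne out by its markers, with 9 of 9 atrial cardiomyocyte genes that had a probe detected in both untreated samples. Of the markers of other cells, 6 of 8 fibroblast, 5 of 7 skeletal muscle, 2 of 5 endothelial and 3 of 4 leukocyte genes were detected on 0 arrays, whereas 3 of 5 smooth muscle genes (Acta2, Tagln and Smtn), Sparc, Tek, Cd3e and the ventricular genes Myl2 and Myl3 were detected in both untreated samples.

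Of the 10 genes, 6 could be measured and 4 could not. Pln, Ryr2, Casq2 and Jph2 were detected on 0 of 6 arrays, meaning that no detection p-value against the negative control beads fell below 0.05. Their 5 probes lay among the 66.4% of all probes that no array detected. The lowest intensity that counted as detected was 70.1 to 73.0, depending on the array. Pln, the main inhibitor of the pump in the ventricle, ranged from 56.3 to 66.7 with a lowest detection p of 0.179. The probe of Ryr2, the release channel itself, ranged from 52.4 to 66.0 (lowest detection p 0.206). Casq2, which binds calcium inside the store, ranged from 63.0 to 67.6 and came nearest to detection, with a lowest detection p of 0.0952. Both probes of Jph2, which ties the reticulum to the surface membrane, stayed between 49.3 and 66.4. These 5 probes were kept out of the main test. A tested probe kept its values on all 6 arrays, including any below detection, as for Fkbp1b with n-HA. With no filter on dim probes, 0 of these 5 passed in either comparison by limma, and the lowest unadjusted p was 0.0814, for Ryr2 with o-HA (-0.19, groups not overlapping). The values say that a single probe did not rise above background, not that the transcript was absent.

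**Figure D1:**
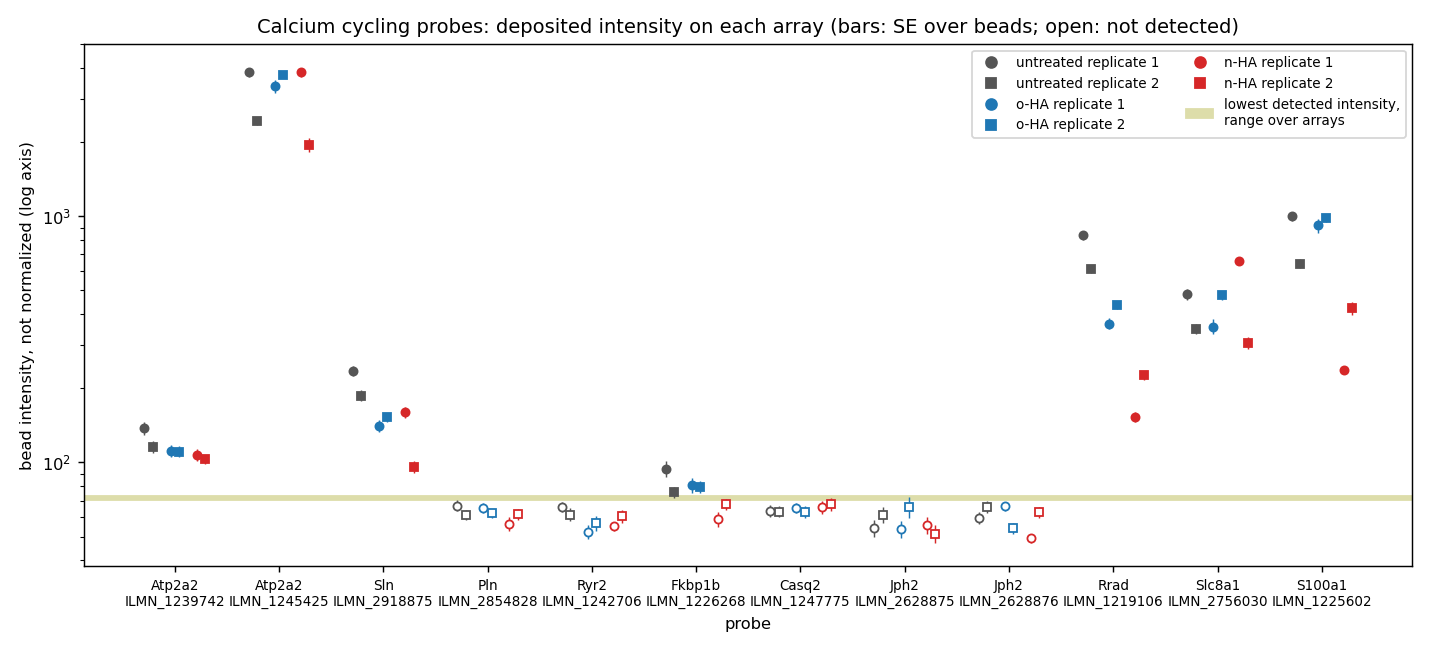
Deposited bead intensity (vertical, log axis, not normalized) of the 12 calcium cycling probes (horizontal) on each of the 6 arrays, with bars for the standard error over beads and open symbols where the detection p-value was 0.05 or more. The probes of Pln, Ryr2, Casq2 and Jph2 lie below the detection band on all arrays, and Fkbp1b falls below it on both n-HA arrays.

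The other 7 probes, of Atp2a2, Sln, Fkbp1b, Rrad, Slc8a1 and S100a1, were tested among 6194 probes of 4885 genes. They were 7 of the 12 member probes, beside 24.1% of all probes on the array, and 6 of the 12 were detected on all 6 arrays, beside 11.7%. Log2 values below are background-corrected, quantile-normalized intensities. Probes differ in brightness for the same amount of RNA, so only values of 1 probe were compared. In the o-HA comparison 0 of the 7 probes passed an adjusted p of 0.05 by limma (0% of all tested probes passed) and 0 had an unadjusted p under 0.05 (1.26% of all probes, 0.71% lower and 0.549% higher). In the n-HA comparison 0 passed (0% of all probes) and 3 of 7 had an unadjusted p under 0.05, 2 lower and 1 higher, beside 21.8% of all probes (12.5% lower and 9.32% higher). Leaving out n-HA replicate 1, 1 of the 7 passed for o-HA, as lower (0.407% of all probes, 0.238% as lower) and 3 passed for n-HA, 2 lower and 1 higher (17.1% of all probes, 9.77% lower and 7.36% higher). Those n-HA calls set 1 array against 2, with the error taken from the other 2 groups. The o-HA and untreated arrays did not overlap for 5 of the 7 probes, 3 lower and 2 higher, beside 43.7% of all probes (22% lower and 21.7% higher). For n-HA this held for 5 of 7, 2 lower and 3 higher, beside 54.3% (30.5% lower and 23.8% higher).

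Of the 7 probes, that of Rrad stood lowest against untreated cells in both comparisons. It encodes a small GTPase of the RGK family that binds the beta subunits of L-type calcium channels and restrains calcium entry. The deposited intensities were 836 and 612 without hyaluronan, 367 and 436 after o-HA and 153 and 226 after n-HA, with standard errors over beads of 6.79 to 34.3. On the normalized log2 scale Rrad read 9.14 and 9.15 (untreated), 8.22 and 8.33 (o-HA) and 7.24 and 8.45 (n-HA). All 4 treated arrays therefore lay below both untreated arrays, as 1 of the 7 probes did, beside 13.2% of all probes. The o-HA and n-HA arrays overlapped, so the order of these 2 groups is not settled. The log2 difference with o-HA was -0.87 (SE 0.40, 95% interval -1.84 to 0.10), a 1.82-fold lower mean, with an adjusted p of 1 by limma over 2 arrays against 2. With n-HA it was -1.30 (SE 0.40, 95% interval -2.27 to -0.33), with an unadjusted p of 0.0165 and an adjusted p of 0.176 by limma. Without n-HA replicate 1, Rrad fell with o-HA (-0.86, SE 0.17, adjusted p = 0.0439 by limma) and in the remaining n-HA array (-0.69, SE 0.21, adjusted p = 0.0363, 1 array against 2 by limma). In the o-HA comparison only 0.194% of all 6194 probes had a log2 difference as low as that of Rrad, and 4.91% did in the n-HA comparison. The study selected Rrad on these samples for its o-HA comparison, so its direction there is not independent evidence.

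**Figure D2:**
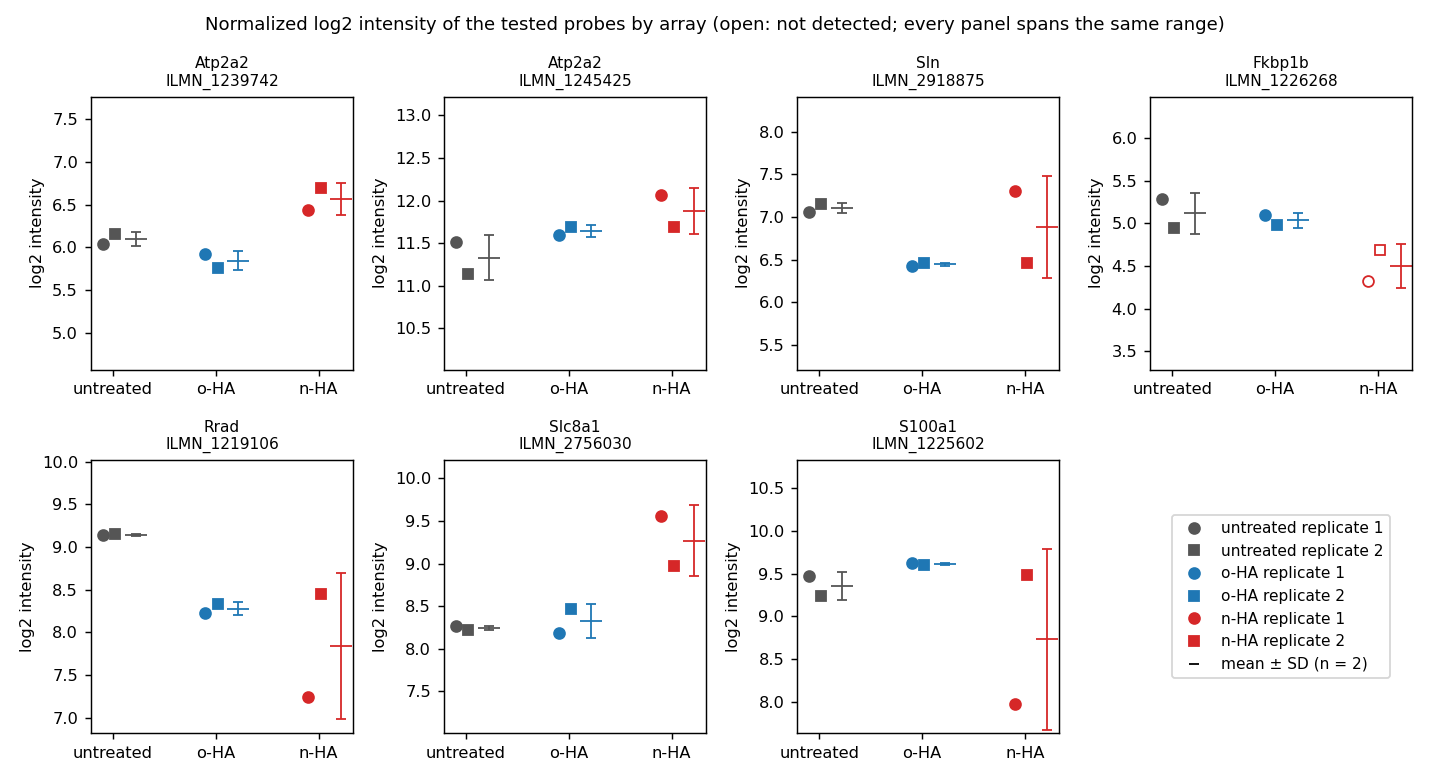
Normalized log2 intensity (vertical) of the 7 tested probes in untreated, o-HA and n-HA cells (horizontal), with 1 symbol per array, open where not detected, and the mean ± SD of each group (n = 2) beside it. Rrad is below the untreated values on all 4 treated arrays (7.24 to 8.45 against 9.14 and 9.15), while the 2 n-HA arrays are far apart for Rrad, Sln and S100a1.

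Sln was lower with o-HA and split between the n-HA arrays. Its log2 values were 7.06 and 7.15 without hyaluronan, 6.43 and 6.46 after o-HA and 7.31 and 6.46 after n-HA. Both o-HA arrays thus lay below both untreated arrays, and the n-HA arrays lay on either side of them. The difference with o-HA was -0.66 on the log2 scale (SE 0.31, 95% interval -1.42 to 0.10), a 1.58-fold lower mean, with an unadjusted p of 0.0782 and an adjusted p of 1 by limma. Only 0.872% of all probes stood as low in that comparison. With n-HA the difference was -0.22 (SE 0.31, 95% interval -0.98 to 0.54). Leaving out n-HA replicate 1 changed the o-HA value little (-0.66, SE 0.17, adjusted p = 0.115 by limma), while n-HA replicate 2 alone was lower than untreated cells by limma (-0.64, SE 0.21, adjusted p = 0.0491, 1 array against 2). Without n-HA replicate 2 the sign of the n-HA difference turned, to 0.21. The study had also selected Sln on these samples for its o-HA comparison.

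Atp2a2 was read by a bright probe and a dim one. The bright probe (ILMN_1245425) gave log2 values of 11.52 and 11.14 (untreated), 11.60 and 11.69 (o-HA) and 12.07 and 11.69 (n-HA). It lay above the untreated arrays on all 4 treated arrays, as 1 of the 7 probes did, beside 10.8% of all probes. Its differences were 0.31 with o-HA (SE 0.25, 95% interval -0.30 to 0.92) and 0.55 with n-HA (SE 0.25, 95% interval -0.06 to 1.16), with adjusted p-values of 1 and 0.251 by limma. The dim probe (ILMN_1239742) read 6.04 and 6.15 without hyaluronan, 5.92 and 5.76 after o-HA and 6.43 and 6.69 after n-HA. For o-HA the 2 probes thus stood on opposite sides of 0, since the dim probe differed by -0.25 (SE 0.22, 95% interval -0.78 to 0.28). Both were higher with n-HA, where the dim probe differed by 0.47 (SE 0.22, adjusted p = 0.258 by limma). That direction turned with the normalization. Without any normalization between arrays the n-HA differences were -0.16 for the bright and -0.44 for the dim probe, when the median of all probes was -0.35. Both probes are annotated to the same transcript, and which part of the transcript each reads was not given in the sources used here.

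Of the members in the release complex, Fkbp1b alone was measurable. It encodes a calstabin that binds ryanodine receptors and steadies their closed state. Log2 values were 5.29 and 4.95 (untreated) and 5.10 and 4.98 (o-HA), and the groups overlapped. The probe was not detected on either n-HA array (detection p 0.677 and 0.0952), where its log2 values were 4.32 and 4.69. Against the detection limit, the n-HA mean was at least 1.21-fold below the untreated mean. That bound sets the untreated mean of 5.12 against the lowest detected value of each n-HA array (mean 4.84). It carries no sampling error. The fitted difference was -0.62 (SE 0.25, 95% interval -1.21 to -0.02, unadjusted p = 0.0457, adjusted p = 0.223 by limma). With the authors' normalized values the n-HA difference was -0.28 and the groups overlapped. With o-HA the fitted difference was -0.08 (SE 0.25, 95% interval -0.68 to 0.52).

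Slc8a1 was the one member with a higher value at an unadjusted p under 0.05. Its log2 values were 8.26 and 8.22 (untreated), 8.19 and 8.47 (o-HA) and 9.56 and 8.98 (n-HA). Both n-HA arrays lay above all other arrays, and the o-HA arrays lay on either side of the untreated ones. The n-HA difference was 1.02 (SE 0.27, 95% interval 0.36 to 1.68), a 2.03-fold higher mean, with an unadjusted p of 0.00883 and an adjusted p of 0.176 by limma. In n-HA replicate 2 alone it was 0.73 (SE 0.22, adjusted p = 0.0347 by limma, 1 array against 2), and so Slc8a1 rose in that fit. The o-HA difference was 0.08 (SE 0.27, 95% interval -0.58 to 0.74). The size of the n-HA value moved with the normalization. Deposited intensities were 661 and 306 on the n-HA arrays beside 483 and 348 on the untreated ones, and the difference without normalization was 0.14. It stood above the median of all probes there (-0.35) as well.

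The bases upstream of Slc8a1 and Fkbp1b are shown because these were the members with an unadjusted p under 0.05 for which RefSeq sequence was at hand. RefSeq windows were matched for 7 of the 10 genes by symbol, and Atp2a2, Sln and Rrad had none in the table. Each run holds the 250 bases before the annotated start in build GRCm38.p6, 5′ to 3′ on the strand of the gene. Capitals mark AGATAA (a form of the motif of the GATA factor family) and CANNTG (the E-box), searched on both strands. Other forms of the GATA motif were not searched.
Slc8a1: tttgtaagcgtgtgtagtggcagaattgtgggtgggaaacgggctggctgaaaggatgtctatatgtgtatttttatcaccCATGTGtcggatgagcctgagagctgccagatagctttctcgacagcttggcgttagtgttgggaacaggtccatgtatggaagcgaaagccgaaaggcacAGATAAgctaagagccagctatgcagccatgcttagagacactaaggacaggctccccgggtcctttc
Fkbp1b: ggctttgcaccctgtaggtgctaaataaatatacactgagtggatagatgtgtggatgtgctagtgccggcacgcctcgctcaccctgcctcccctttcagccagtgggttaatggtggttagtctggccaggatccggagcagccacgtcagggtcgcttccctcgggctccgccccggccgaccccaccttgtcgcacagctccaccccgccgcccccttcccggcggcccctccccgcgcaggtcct
The Slc8a1 window (chr17:81738388-81738637, minus strand) held 1 AGATAA match, beginning at -68 from the start, and 1 CANNTG match, which did not overlap. The Fkbp1b window (chr12:4841574-4841823, minus strand) held 0 of either. Of 32851 such windows, 9.99% held AGATAA and 66.2% held CANNTG. A match is only a string of letters and was not measured here as a site.

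S100a1, a calcium sensor that binds SERCA2 and the ryanodine receptor, was split between the n-HA arrays. Its log2 values were 9.47 and 9.24 without hyaluronan, 9.63 and 9.61 after o-HA and 7.98 and 9.48 after n-HA. Only n-HA replicate 1 was low, and n-HA replicate 2 lay next to the untreated arrays. The n-HA difference was -0.62 with both arrays (SE 0.48, 95% interval -1.79 to 0.54, adjusted p = 0.447 by limma) and turned to 0.13 (SE 0.22) without n-HA replicate 1. With o-HA it was 0.26 (SE 0.48, 95% interval -0.90 to 1.42), where the groups did not overlap but the adjusted p was 1 by limma.

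**Figure D3:**
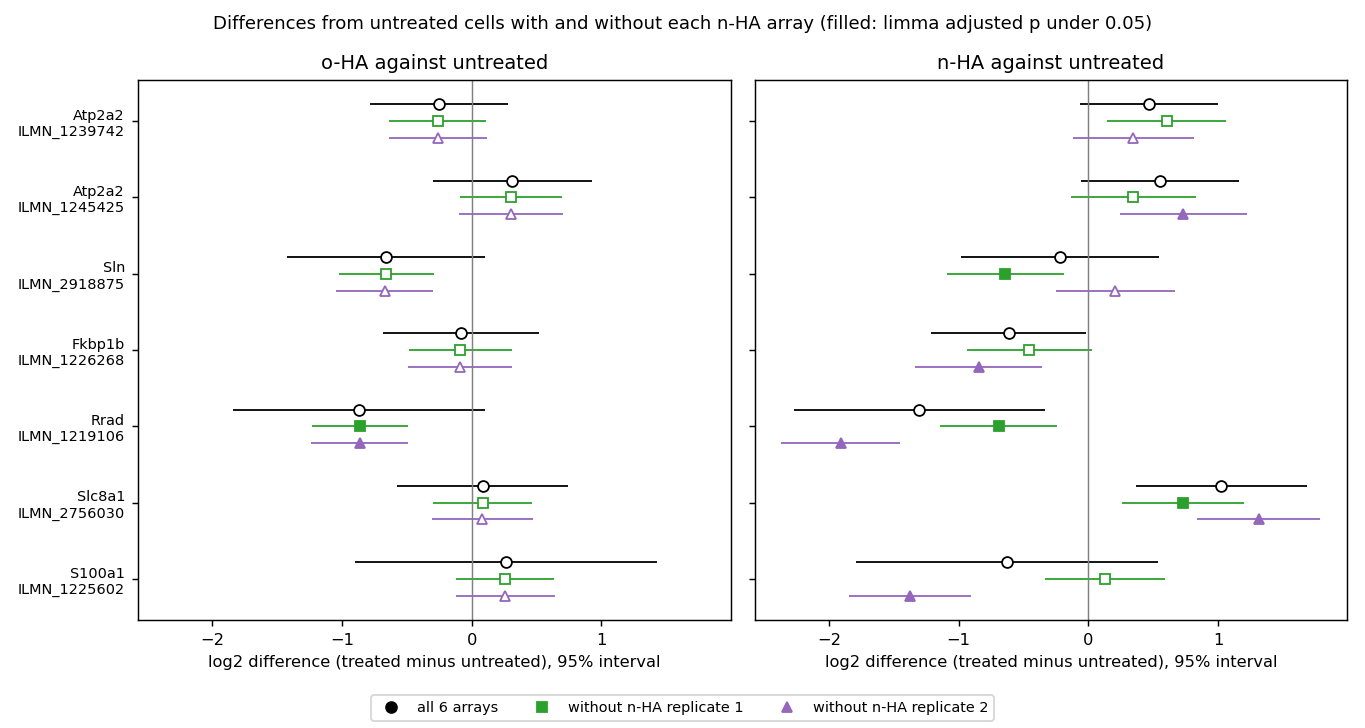
Log2 difference from untreated cells (horizontal, with its 95% interval) of the 7 tested probes (vertical), for o-HA on the left and n-HA on the right, with all 6 arrays and without either n-HA array; filled symbols passed an adjusted p of 0.05 by limma. Rrad lies left of 0 in each fit, Slc8a1 lies right of 0 with n-HA in each fit, and Sln and S100a1 change side with n-HA according to the array left out.

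Summed marker intensities differed on the n-HA arrays as well. These sums are of deposited intensities, not normalized, and the n-HA arrays were dimmer. The summed intensity of the 8 fibroblast markers was 3218 to 3843 on the untreated arrays, 2618 to 3145 with o-HA and 712 to 1624 with n-HA. Among these markers Col1a1, Col1a2, Dcn, Pdgfra, Lum and Postn were detected on 0 arrays and Sparc was the bright one. The 9 atrial markers summed to 4253 to 6426 on the untreated arrays and to 4532 to 5199 on the o-HA pair. On the n-HA pair they summed to 10335 and 2793, and Sln is itself one of them. The brightest was Myl4 (untreated mean log2 11.73, beside 7.69 for Tbx5, the next), and it weighs most in the sum. The atrial markers did not move together. The normalized n-HA means of Myl4, Nppa, Actc1 and Gja5 lay above the untreated means. Those of Myl7, Myh6, Nkx2-5, Tbx5 and Sln lay below them. The part of these shifts in the calcium cycling values was not tested. In bulk samples, fewer cells of a type and less RNA per cell cannot be told apart.

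Other genes of calcium handling gave 0 calls in either comparison with all 6 arrays, by limma. Of 110 genes on the lists 94 had a probe and 44 could be tested, each by its brightest probe. Among these, Tmx1 and Dysf passed the filter only through the untreated arrays, which favours a lower value. Cacna1c and Cacna2d1 passed it only through treated arrays, which favours a higher value. With o-HA 32 of the 44 lay below untreated cells and 12 above, at a median log2 difference of -0.14, while 49.7% of all probes were lower and their median was 0.002. None had an unadjusted p under 0.05 (0 of 44). With n-HA 27 were lower and 17 higher, with a median of -0.16 beside -0.01 for all probes, and 13 of 44 (29.5%) had an unadjusted p under 0.05, 2 higher and 11 lower, beside 21.8% of all probes. Leaving out n-HA replicate 1, 42 of these genes were tested, and 8 passed as lower and 4 as higher with n-HA (9.77% and 7.36% of all probes), while 0 passed with o-HA (0.407%).

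The release complex and the lumen of the store, apart from the members, had 7 tested genes. With each hyaluronan 6 were lower and 1 higher, while 49.7% (o-HA) and 50.7% (n-HA) of all probes were lower. Tmem38b counted as lower with n-HA from its brighter probe (-0.45), but its other probe, detected on 6 arrays, stood at 0.35. The median log2 difference of this list was -0.25 with o-HA and -0.45 with n-HA. Asph, whose locus encodes the junctional protein junctin, had log2 values of 5.65 and 5.81 (untreated), 5.37 and 5.30 (o-HA) and 4.61 and 5.11 (n-HA). Its n-HA difference was -0.87 (SE 0.25, adjusted p = 0.176 by limma). Only 1 of the 14 Asph probes was tested, and whether it reads junctin was not given in the sources used here. The luminal calcium buffer Calr was not detected with n-HA (adjusted p = 0.229 by limma), but its untreated arrays read 5.83 and 4.77, and the second lies below the mean detection floor of the n-HA arrays (4.84). Hrc, another luminal calcium-binding protein, was the one gene of the list above untreated cells with n-HA, at 0.94 (SE 0.81), and it read 9.90 in n-HA replicate 1 but 7.15 in replicate 2.

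Genes of the junction between reticulum and surface membrane were lower in 4 of 4 cases with o-HA and in 3 of 4 with n-HA, beside 49.7% and 50.7% of all probes. Dysf was tested only because both untreated arrays detected it, so the filter favoured a lower value and it adds nothing to these counts. Jph3 was not detected with o-HA either. Jsrp1, a protein of the junctional face, did not pass with n-HA (adjusted p = 0.190 by limma). Against the detection limit its n-HA mean was at least 1.38-fold lower, since neither n-HA array detected it. The membrane repair gene Dysf was likewise undetected there (adjusted p = 0.181), but its untreated arrays read 5.10 and 4.84, and the second lies just under that floor. Jph3, a junctophilin, was the gene of this list with a higher n-HA mean (0.41, SE 0.29), and in n-HA replicate 2 alone it rose (0.82, adjusted p = 0.0193, 1 array against 2 by limma). Of 6 tested genes of surface calcium entry, 4 were higher and 2 lower with each hyaluronan. At the surface membrane Cacnb2, a beta subunit of the L-type channel of the kind that Rrad binds, read 5.17 and 5.22 without hyaluronan, 4.90 and 4.83 after o-HA and 4.28 and 4.31 after n-HA. The n-HA arrays, which detected fewer probes of any kind, did not detect it. Against the detection limit their mean was at least 1.28-fold lower. The difference did not pass (adjusted p = 0.159 by limma). Cacnb4, another beta subunit, was detected on 6 arrays and stood at 0.02 with o-HA and -0.06 with n-HA. Cacna1c, the pore of the L-type channel, stood at 0.64 with n-HA (SE 0.28, adjusted p = 0.239 by limma). No untreated array detected its probe, so the filter favoured a higher value. Against the detection limit the n-HA mean was at least 1.33-fold higher, a bound that shares this selection. The other RGK genes with a probe, Rem2 and Gem, were detected on 0 arrays. Among genes of calcium extrusion, Atp2b4 stood at -0.11 with o-HA (SE 0.33) and 0.64 with n-HA (SE 0.33), and Atp2b2 at -0.09 and 0.35. In n-HA replicate 2 alone the differences were 1.12 for Atp2b4 and 0.88 for Atp2b2, 1 array against 2. The Atp2b2 probe was detected on only 2 arrays. Its n-HA arrays read 4.49 and 5.46, on either side of the untreated ones (4.72 and 4.53).

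Signalling and mitochondrial genes held the lowest n-HA values. Of 13 tested signalling genes, 9 were lower and 4 higher with o-HA, and 8 were lower and 5 higher with n-HA. Akap6, which anchors protein kinase A at the ryanodine receptor, read 6.22 and 5.85 (untreated), 6.06 and 5.78 (o-HA) and 4.49 and 4.90 (n-HA). Its n-HA difference was -1.34 (SE 0.26, adjusted p = 0.152 by limma), and in n-HA replicate 2 alone Akap6 fell (-1.19, adjusted p = 0.00563, 1 array against 2 by limma). Ppp1cc, a catalytic subunit of protein phosphatase 1, read 6.63 and 6.74 without hyaluronan, 6.20 and 6.18 after o-HA and 4.53 and 5.67 after n-HA, a difference of -1.59 with n-HA (SE 0.38, adjusted p = 0.165 by limma). The study selected Ppp1cc on these samples in both comparisons, so its direction is not independent evidence. The mitochondrial uniporter genes had lower means too, but none passed. Micu2, a gatekeeper of the uniporter, stood at -1.39 with n-HA (SE 0.36, adjusted p = 0.176 by limma). Smdt1, which holds its subunits together, stood at -0.89 (SE 0.29, adjusted p = 0.179 by limma). Without n-HA replicate 1 the differences were -0.86 for Micu2 and -0.53 for Smdt1. Mcu itself stood at only -0.28 with n-HA (SE 0.27). With n-HA all 6 tested mitochondrial calcium genes had a mean below untreated cells, beside 50.7% of all probes. For Vdac2 this was -0.04, and it turned to 0.35 without n-HA replicate 1. Prkar1a, a regulatory subunit of protein kinase A, read 8.52 and 8.38 in untreated cells and 9.12 and 8.99 with n-HA, 0.60 higher (SE 0.20, adjusted p = 0.192 by limma). Atp2a3, which encodes the pump SERCA3, stood at 1.51 with n-HA (SE 0.61), a value carried by n-HA replicate 1 (7.31, against 5.31 in replicate 2), and its other tested probes stood at -0.27 and -0.27.

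**Figure D4:**
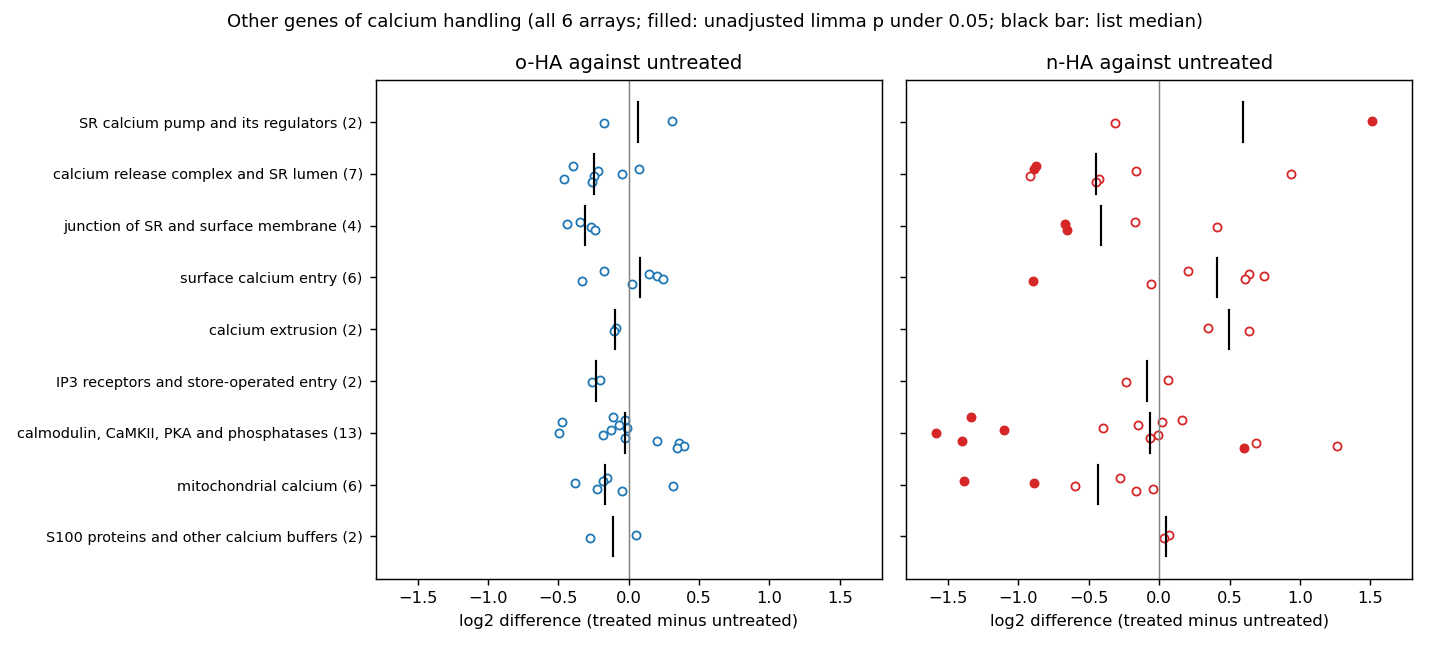
Log2 difference from untreated cells (horizontal) of the 44 tested genes of other calcium handling lists (vertical, number tested in brackets), for o-HA on the left and n-HA on the right, with all 6 arrays. Points are genes, filled at an unadjusted p under 0.05 (0 with o-HA, 13 with n-HA), and black bars are list medians, which are -0.25 and -0.45 for the release complex.

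The genes nearest to the members in pattern were found by the root mean square distance between centred log2 values over the 6 arrays. This is a description over 6 arrays that share their chip, and no test was attached to it. For Rrad these were Las1l (distance 0.073), Sf1 (0.129) and Inha (0.134), beside an SD of 0.71 for Rrad itself. For Sln they were Rasgrf1 (0.073), Cemip2 (0.114) and Vasp (0.133), beside an SD of 0.40. Slc8a1 lay nearest to Prrc2b (0.070), Myd88 (0.073) and Dtx3 (0.085), and S100a1 to Cers2 (0.076), Bckdk (0.082) and Ipo5 (0.086). For the bright probe of Atp2a2 they were Tubgcp2 (0.073), Niban2 (0.074) and Sspn (0.075), and for the dim probe Kcna3 (0.059), Lrrc42 (0.068) and Crisp3 (0.069). The 3 nearest genes of the 2 Atp2a2 probes had none in common.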

How the data were processed

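Total RNA was amplified with the Illumina TotalPrep kit, hybridized to a MouseRef-8 beadchip and read with BeadStudio 3.3 (version from the submitters' processing notes). The authors deposited bead intensity per probe on a linear scale, not normalized, with a detection p-value per array against negative control beads, bead numbers and a standard error over beads. Also deposited were intensity values that the authors normalized by cubic spline. Their scale is linear, 38.1% lie below 0 on each array, the column medians are 1.687 to 1.694, and the background value subtracted is not stated. No authors' fold changes were used, and their BeadStudio test was not rerun.

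Intensities were corrected with neqc of limma 3.58.1 (R 4.3.3), with an offset of 16 and quantile normalization, on the log2 scale. Probes with detection p under 0.05 on at least 2 of 6 arrays were tested with lmFit and eBayes over 3 groups (3 residual and 3.145 prior degrees of freedom), two-sided, with Benjamini-Hochberg adjustment over all probes and a threshold of 0.05. The fit was tested on simulated data. Gene names came from the platform annotation, where 23978 probes had 1 symbol, 0 had several and 1719 had none. A median of 41 beads stood behind each value, and precision is limited by having 2 arrays per group. A group in which no array detected a probe gives a bound ("at least"): the brighter group's mean against, per array, the higher of the lowest detected log2 value and the probe's own. The bound compares means and carries no sampling error, and the n-HA arrays detected fewer probes of any kind than the others. Members, gene lists and tests were chosen with earlier results of these data known. All members were named. Of other calcium handling genes, those with the smallest p-values under 0.05 (at most 8 a comparison) and up to 3 more a list were named; Calr, Cacna1c, Prkar1a and Vdac2 were added after their values were seen. Alternatives covered the background, offset, normalization, filter, array weights, samples and replicate block.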

Additional observations from a re-analysis of the deposited data

How the results depend on the processing

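The limits lie in the arrays. There are 2 per group, n-HA replicate 1 stood apart, and the n-HA arrays were dimmer, so n-HA values depend on how arrays are brought to a common scale. Probes near background, such as that of Fkbp1b (detected on 4 arrays, or 3 at a detection p under 0.01), carry little information on direction.

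The count of calcium cycling probes passing by limma was 0 in both comparisons. For n-HA it was 2, both lower (Rrad and S100a1), without normalization between arrays, and ranged from 0 to 5 when 1 array was left out. The 5 came without n-HA replicate 2, when n-HA replicate 1 stands alone, and were Rrad (-1.91), S100a1, Fkbp1b (-0.85), Slc8a1 (1.31) and the bright Atp2a2 probe (0.73). For o-HA it was 1 (Rrad) with array weights and ranged from 0 to 1 when 1 array was left out. Over all probes the count for n-HA was 0, and 1472 without normalization, 95 with the authors' normalized values, 12 with no filter on dim probes and 8 with array weights; leaving out 1 array gave 0 to 3221. For o-HA it was 0, and 4 with the authors' values and 26 with array weights; leaving out 1 array gave 0 to 24. In every case the cause was not tested.

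Rrad kept its lower value in all 16 alternatives of each comparison (-0.92 to -0.78 with o-HA, -2.27 to -0.69 with n-HA). Sln stayed lower with o-HA in all 16 (-0.77 to -0.45), and Slc8a1 stayed higher with n-HA in all 16 (0.14 to 1.31). Atp2a2 with n-HA turned without normalization (-0.16 and -0.44). Leaving out 1 array turned 4 other directions, with ranges of -0.64 to 0.21 for Sln with n-HA, -1.37 to 0.13 for S100a1 with n-HA, -0.26 to 0.078 for Fkbp1b with o-HA and -0.058 to 0.22 for Slc8a1 with o-HA.

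Samples of different groups share replicate numbers in the labels, but deviations of same-numbered arrays correlated at -0.11, 0.15 and -0.04, so the numbers were not taken as pairs. With the replicate number as a block, 0 calcium cycling probes and 0 probes in all passed in either comparison, and the block changed no call.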
